A study of Mus musculus with 28 samples.

Results

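The comparison is the response of transferred Th17 cells to a short restimulation of their antigen receptor, measured 5 days after transfer into mice. Its members are 6 of the 28 arrays of the study, chosen by their titles: 3 arrays of Th17 cells recovered at day 5 and left without stimulation, and 3 arrays of the same cells stimulated for 2 hours. The arrays were paired by replicate number, since each recovered sample was split and one portion received the stimulus. The 6 matching arrays of Th1 cells at day 5 and the 8 arrays of Th17 cells at day 15 were used to test whether responses differed.

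All groups carried the same donor cells, CD4+ T cells of BwTRP1 Rag1-/- mice, whose transgenic receptor recognises a peptide of TRP1, a melanocyte protein. The cells had first been activated in culture with peptide-pulsed, irradiated C57/B6 spleen cells. Cultures for Th17 cells received IL-1, IL-6, IL-21 and TGFβ2 together with antibodies to IL-2, IL-4 and IFN-γ, then IL-2 and IL-23. Cultures for Th1 cells received IL-12 and an antibody to IL-4. The polarised cells, which carried Thy1.2, went into sublethally irradiated B6.PL hosts, which carry Thy1.1. They were recovered from spleen and inguinal lymph nodes by CD4 enrichment and sorting for Thy1.2. The sort therefore selected Thy1.2 and not a Th17 marker, and both Th1 and Th17 cells of the study had passed through this irradiated host. The stimulus was a pair of antibodies to CD3 and CD28, given in vitro. The labels do not say whether the unstimulated portion was incubated for the same time, so receptor stimulation and incubation cannot be told apart. Nothing in them ties the replicates to separate mice either. Each p-value reflects how much the change varied between pairs of arrays, which may be technical. In the day 5 fit this variation was pooled over the Th17 and Th1 pairs.

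Ligation of the T cell receptor and CD28 opens calcium entry and activates kinase cascades, which turn on transcription factors of the NFAT, AP-1 and NF-kappaB families within minutes to hours. Early target genes encode further transcription factors such as the Nr4a and Egr families, cytokines, surface ligands and inhibitors that limit the signal. Th17 cells are helper T cells known for IL-17A and IL-17F, cytokines that act on epithelium and recruit neutrophils, and Th1 cells are known for interferon gamma.

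Each value is a log2 expression level of one gene, normalised across arrays by the authors. A change is the mean difference over the 3 pairs, restimulated minus unstimulated, so a change of 1 is a 2-fold rise. A gene is said to have risen or fallen where limma's test, adjusted over 19938 genes, gave an adjusted p under 0.05. The medians of the 6 arrays were 6.87 to 7.03 and, within a group, arrays correlated at 0.993 to 0.997. The labelled type was set against its markers. Unstimulated Th17 arrays had Il23r, the receptor subunit for IL-23, at 8.86 to 9.36, where Th1 arrays had 5.79 to 6.0. The 2 types also did not overlap in Ccr6, a chemokine receptor of Th17 cells, at 7.51 to 8.48 against 5.76 to 6.10. The same held for Rora, a transcription factor of the Th17 program, at 10.75 to 11.04 against 9.16 to 9.41. Tbx21, the Th1 master regulator, was present in both, at 11.04 to 11.67 in Th17 and 11.76 to 11.98 in Th1 arrays.

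Replicate 1 stood apart from the other Th17 samples before any stimulus was given. The mean level of 21 granulocyte and monocyte markers was 8.68 in its unstimulated portion, against 7.27 and 7.47 in replicates 2 and 3. After restimulation the 3 values were 7.97, 6.65 and 6.84, so the marker mean was lower in every pair and replicate 1 remained the highest in both portions. Unstimulated Th1 arrays lay between 6.39 and 6.67. The mean of CD4 T cell markers was 12.39 to 12.51 throughout. In these bulk samples, fewer cells of a type and less RNA per cell cannot be told apart. Results are therefore also given without replicate 1 where that changes a call or moves a count by more than 1.5 times.

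Restimulation raised 1685 genes, 8.45% of those tested, and lowered 2029, or 10.2%. Each list count below is to be read beside these shares. Of the 9969 genes above the median level, fitted alone, 1585 rose and 2310 fell, so such genes were called more often. The lists were chosen with earlier results of these data known, so their shares are a description. Large changes went mostly upward. At least 2-fold, 152 genes rose (0.762%) and 22 fell (0.11%), and at least 4-fold, 31 rose and none fell. The median change over all genes was 0.03. In 14.3% of all genes the 2 groups of 3 arrays did not overlap with restimulated arrays higher, and in 13.4% with them lower. Without replicate 1 the counts were 875 higher and 790 lower, and without replicate 3 they were 843 and 1161, so the larger side turned when replicate 1 was left out. Centring the arrays on their medians left the split at 38% higher, against 45.4% as deposited. The count changed at least 2-fold moved less, from 174 to 144 without replicate 1, 230 without replicate 2 and 173 without replicate 3.

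**Figure D1:**
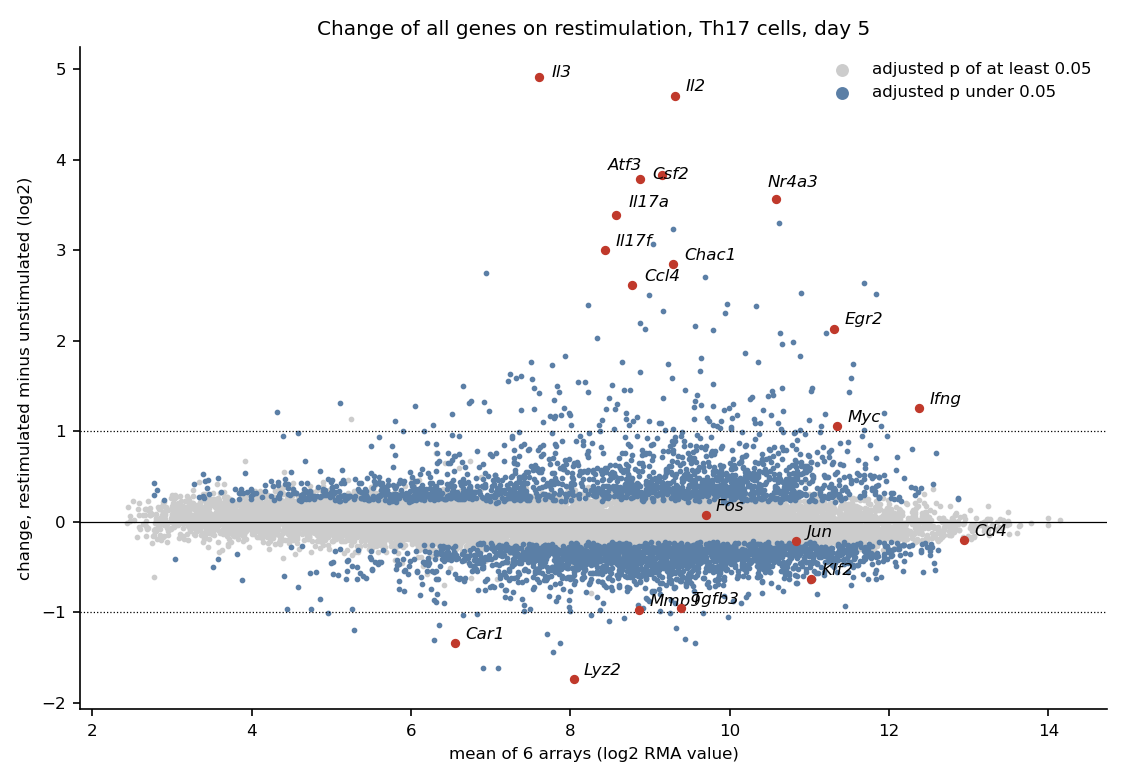
Mean log2 level over the 6 Th17 day 5 arrays (horizontal) against the log2 change on restimulation (vertical). Each point is a gene, 19938 in all, and called genes are coloured. The labelled genes are a chosen set, which includes the uncalled Fos and Jun and leaves out larger changes such as Ccl1. The upper part holds cytokine, chemokine and Nr4a genes up to a change of 4.91, and no called gene lies below -1.73.

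Both signature Th17 cytokines rose by several log2 units in each of the 3 pairs. Il17a was at 6.79, 6.71 and 7.15 without and 10.31, 10.21 and 10.30 with restimulation. The groups were far apart and the restimulated values lay within a narrow band, and the change was 3.39 (SE 0.09, adjusted p = 2.61e-08), which is 10.5-fold (95% interval of the log2 change 3.19 to 3.58). Il17f, its neighbouring paralog, was at 6.80, 6.89 and 7.11 without and 9.66, 9.99 and 10.18 with restimulation. Its groups did not overlap either, with a change of 3.00 (SE 0.09, adjusted p = 3.46e-08), or 8.03-fold.

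The largest changes of all belonged to cytokines that many helper cells share. Il2, the T cell growth factor, was at 7.52, 6.77 and 6.60 without and 11.66, 11.41 and 11.94 with restimulation. Replicate 1 had the highest unstimulated value, and the change was 4.71 (SE 0.20, adjusted p = 3.43e-07), or 26.1-fold. Il3, a growth factor for blood cell precursors and mast cells, was at 4.89, 5.19 and 5.36 without and 10.33, 8.98 and 10.86 with restimulation. Replicate 2 had the lowest restimulated value in a group that still lay far above the unstimulated one, with a change of 4.91 (SE 0.42, adjusted p = 5.99e-05). Csf2 encodes GM-CSF, a cytokine through which T cells activate myeloid cells, and it was at 6.66, 7.05 and 7.24 without and 11.03, 10.14 and 11.12 with restimulation. Its change was 3.78 (SE 0.30, adjusted p = 3.08e-05), or 13.7-fold, again with replicate 2 lowest among the restimulated arrays.

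Ifng, Tnf and Il21, effector cytokines of inflammation, had smaller changes. Ifng was at 10.88, 12.29 and 12.09 without and 12.94, 12.98 and 13.10 with restimulation. The unstimulated value of replicate 1 was the lowest by more than 1 log2 unit, while the restimulated arrays nearly coincided, and the change was 1.26 (SE 0.20, adjusted p = 0.00215). Tnf, which activates endothelium and macrophages, was at 10.40, 10.74 and 10.90 without and 12.23, 12.32 and 12.71 with restimulation, with a change of 1.74 (SE 0.16, adjusted p = 0.000113). Il21, which acts on B cells and on Th17 cells themselves, was at 8.56, 9.58 and 9.64 without and 10.74, 11.02 and 11.60 with restimulation, a rise of 1.86 (SE 0.18, adjusted p = 0.000121). None of the 3 genes overlapped between the groups, which held for 14.3% of all genes on the higher side.

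Of 23 measured cytokine genes, 12 rose and 2 fell, with a median change of 0.68, where 8.45% and 10.2% of all genes did so. The rises included Il13, a type 2 cytokine, with 2.51 (SE 0.22, adjusted p = 7.5e-05). The gene for the type 2 cytokine Il4 was at 6.45, 6.29 and 6.46 without and 7.90, 6.49 and 6.85 with restimulation. The restimulated values spread over more than 1 log2 unit and the change of 0.68 (SE 0.27, adjusted p = 0.106) did not pass. Il10, an anti-inflammatory cytokine, rose by 1.33 (SE 0.27, adjusted p = 0.00727), a call that was lost without replicate 1 (adjusted p = 0.0565). Tgfb3, a TGFβ ligand, fell, with a change of -0.96 (SE 0.16, adjusted p = 0.00275). Without replicate 1, 1 of the 2 falls remained in the count.

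**Figure D2:**
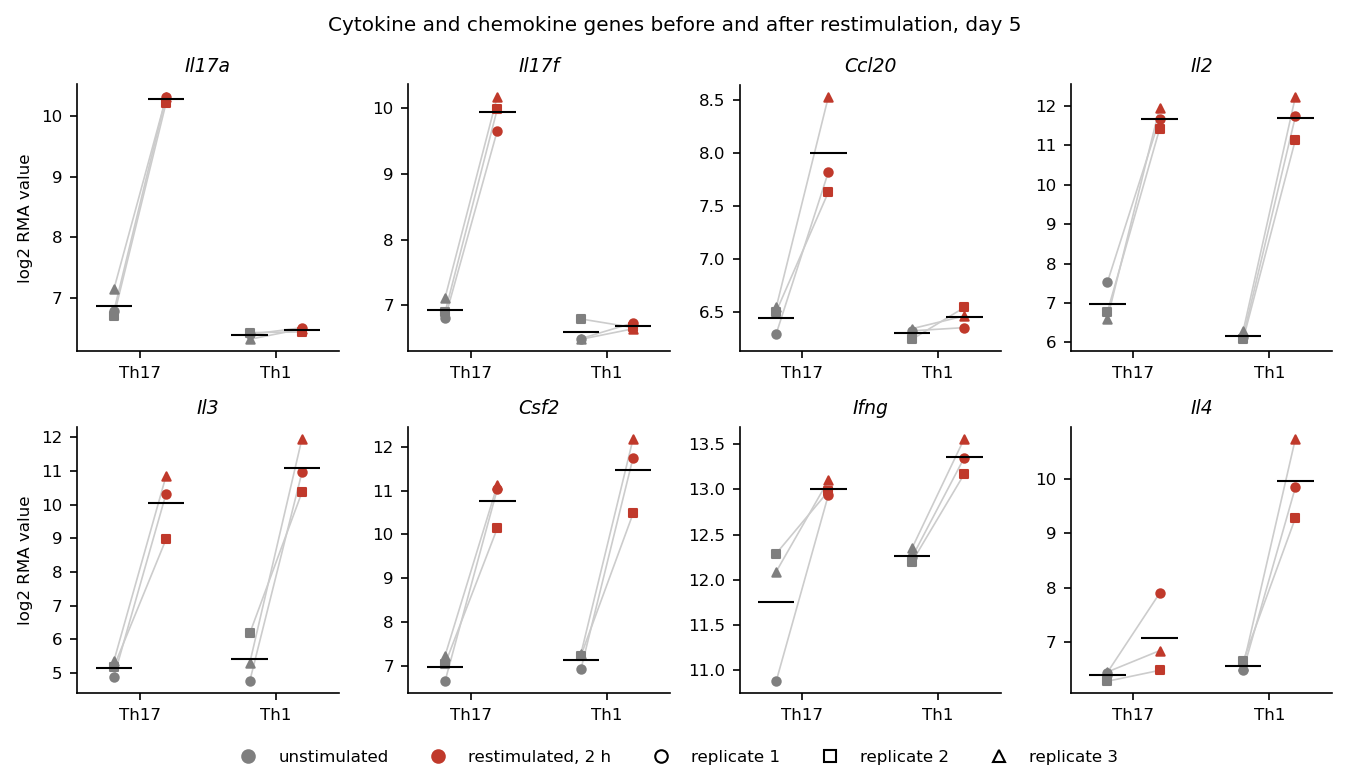
Log2 levels of 8 cytokine and chemokine genes in Th17 and Th1 cells at day 5, with lines joining the 2 portions of each replicate and black bars at the group means. Il17a, Il17f and Ccl20 rose in the Th17 pairs and stayed near their unstimulated level in the Th1 pairs, Il4 rose in Th1 pairs, and Il2, Il3, Csf2 and Ifng rose in both.

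Promoters of 5 chosen genes that rose are shown: Il2 and Nr4a3 as early genes, and Il17a, Il17f and Ccl20 as genes of the Th17 program. Their part in the response was not tested. Each is the 250 bases before the annotated start on the gene's own strand, from RefSeq on build GRCm38.p6. Capitals mark every match, on either strand, to the AP-1 motif TGANTCA, the CRE half-site TGACG and the NFAT core GGAAA. In Il17f one reverse NFAT core overlaps a reverse CRE half-site. The NF-kappaB motif was searched on either strand as a pattern and is not capitalised. That pattern opens with GGG and ends with CC, with the bases between them only partly fixed. The windows are Il2 at chr3:37125955-37126204 on the minus strand, Nr4a3 at chr4:48045055-48045304 on the plus strand, Il17a at chr1:20730655-20730904 on the plus strand, Il17f at chr1:20784271-20784520 on the minus strand, and Ccl20 at chr1:83116516-83116765 on the plus strand.
Il2: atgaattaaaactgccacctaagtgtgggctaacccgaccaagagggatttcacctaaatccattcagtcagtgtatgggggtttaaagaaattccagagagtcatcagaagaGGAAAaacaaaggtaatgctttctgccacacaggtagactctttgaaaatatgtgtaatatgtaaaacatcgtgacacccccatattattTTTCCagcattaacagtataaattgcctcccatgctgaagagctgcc
Nr4a3: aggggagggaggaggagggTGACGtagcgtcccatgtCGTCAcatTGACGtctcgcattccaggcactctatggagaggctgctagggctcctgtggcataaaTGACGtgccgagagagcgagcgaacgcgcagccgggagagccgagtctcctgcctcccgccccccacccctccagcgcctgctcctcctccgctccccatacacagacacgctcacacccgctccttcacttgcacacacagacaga
Il17a: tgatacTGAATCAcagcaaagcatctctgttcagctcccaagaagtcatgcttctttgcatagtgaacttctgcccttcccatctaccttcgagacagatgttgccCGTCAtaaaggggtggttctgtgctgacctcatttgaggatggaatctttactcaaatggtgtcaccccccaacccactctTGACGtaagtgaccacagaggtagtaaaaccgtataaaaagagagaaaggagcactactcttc
Il17f: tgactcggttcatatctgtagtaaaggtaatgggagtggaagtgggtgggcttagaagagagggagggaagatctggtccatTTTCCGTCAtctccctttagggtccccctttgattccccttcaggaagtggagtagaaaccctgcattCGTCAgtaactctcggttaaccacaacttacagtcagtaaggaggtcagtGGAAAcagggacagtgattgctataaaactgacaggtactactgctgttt
Ccl20: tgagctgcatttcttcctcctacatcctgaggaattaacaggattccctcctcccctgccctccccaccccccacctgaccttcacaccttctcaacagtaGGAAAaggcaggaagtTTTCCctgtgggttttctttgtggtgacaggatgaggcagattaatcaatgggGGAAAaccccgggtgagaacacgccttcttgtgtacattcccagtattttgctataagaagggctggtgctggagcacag
Nr4a3 held 4 CRE half-sites in its window and no match to the other motifs. Il17a held 1 AP-1 motif and 2 CRE half-sites, and Il17f held 2 CRE half-sites and 2 NFAT cores. Il2 held 2 NFAT cores, and Ccl20 held 3 NFAT cores and 2 NF-kappaB motifs.

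The same motifs were counted over genes with a window, leaving out chromosome 18. Of 15614 tested genes that had one, 108 were among the genes raised at least 2-fold. A gene held a motif where any of its windows did, and windows per gene were not compared between the sets. The NF-kappaB motif was found in 37% of those 108 and in 21.6% of all tested genes. The CRE half-site was found in 36.1% and 24.1%, the NFAT core in 65.7% and 58.9%, and the AP-1 motif in 11.1% and 7.1%. Over all 32851 windows outside that chromosome the 4 shares were 16.8%, 17.8%, 55.6% and 6.7% in the same order. These shares are a description, and a match is only a match of letters.

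Chemokine genes formed a second group of secreted products. Of 15 measured, 8 rose and none fell, with a median change of 0.41. Ccl20, the ligand of Ccr6, was at 6.29, 6.50 and 6.54 without and 7.82, 7.63 and 8.53 with restimulation, a change of 1.55 (SE 0.13, adjusted p = 5.65e-05) with no overlap. Ccl3 and Ccl4, inflammatory chemokines and close paralogs that probes may not fully separate, rose by 2.64 (SE 0.09) and 2.61 (SE 0.16). Ccl1, the ligand of Ccr8, rose by 3.23 (SE 0.15, adjusted p = 8.64e-07). Cxcl10, the ligand of Cxcr3 and best known as an interferon target, was at 7.75, 8.07 and 8.18 without and 10.30, 9.98 and 10.69 with restimulation and rose by 2.33 (SE 0.15, adjusted p = 1.11e-05). Xcl1, which attracts cross-presenting dendritic cells, rose by 0.86 (SE 0.20, adjusted p = 0.0144), a call lost without replicate 1 (adjusted p = 0.0814) or replicate 3 (0.0999).

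Immediate early transcription factors mostly rose. Of 26 measured, 20 rose and 1 fell, with a median change of 0.93, and 13 rose at least 2-fold. The 3 Nr4a genes encode orphan nuclear receptors induced by receptor signalling. Nr4a1 was at 10.23, 10.48 and 11 without and 13.03, 13.07 and 13.15 with restimulation, a change of 2.52 (SE 0.11, adjusted p = 4.62e-07). Nr4a3 was at 8.34, 8.90 and 9.16 without and 12.28, 12.28 and 12.52 with restimulation, a change of 3.56 (SE 0.13, adjusted p = 8.08e-08), and Nr4a2 rose by 3.29. The restimulated values of Nr4a1 nearly coincided, and neither Nr4a1 nor Nr4a3 overlapped between the groups.

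Among zinc finger and leucine zipper factors the response was uneven. Egr2, which limits T cell activation, was at 9.78, 10.25 and 10.68 without and 12.36, 12.16 and 12.60 with restimulation, a change of 2.13 (SE 0.14, adjusted p = 1.12e-05). Egr1, its relative, rose by 1.44 (SE 0.07, adjusted p = 9.83e-07). Atf3, a stress-induced factor, was at 6.84, 7.16 and 7.71 without and 10.76, 11.10 and 11.35 with restimulation, a change of 3.83 (SE 0.14, adjusted p = 8.08e-08) that was the largest of the list. The AP-1 subunit Fosl2 rose by 2.31 (SE 0.11, adjusted p = 9.83e-07) and Myc, the growth regulator, by 1.06 (SE 0.12, adjusted p = 0.000387). Fos, the classical AP-1 subunit, was at 9.79, 9.23 and 9.96 without and 9.14, 9.99 and 10.08 with restimulation, and Jun had a change of -0.21 (SE 0.19, adjusted p = 0.487). The groups of Fos overlapped and its change of 0.08 (SE 0.26, adjusted p = 0.868) did not pass. Fosb rose by 1.23 (SE 0.32, adjusted p = 0.0222), a call lost without replicate 2 (adjusted p = 0.106) or replicate 3 (0.107).

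The NF-kappaB list, subunits and inhibitors that act downstream of CD28, rose nearly as a whole. Of 20 measured genes, 16 rose and none fell, with a median change of 0.55. Rel, the subunit most used by T cells, rose by 1.58 (SE 0.10, adjusted p = 8.75e-06), Relb by 1.33 (SE 0.14, adjusted p = 0.000254) and Nfkb2 by 0.97 (SE 0.11, adjusted p = 0.000318). The inhibitors Nfkbia and Nfkbid rose by 0.71 (SE 0.07) and 1.47 (SE 0.08). Nfkbiz, an atypical family member that Th17 cells use, rose by 1.39 (SE 0.07). Tnfaip3, the deubiquitinase A20 that shuts the pathway off, rose by 1.19 (SE 0.09, adjusted p = 2.5e-05). Leaving out replicates left 14 to 16 of the 20 called.

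The receptor complex and the calcium pathway did not move as lists, where 8.45% of all genes rose and 10.2% fell. Of 20 measured genes of the receptor complex and its proximal kinases, 1 rose and 2 fell (median -0.07), and none was called without replicate 1 or without replicate 3. Cd3e, a signalling chain of the receptor, had a change of -0.15 (SE 0.08, adjusted p = 0.196). Of 13 NFAT and calcium genes, 2 rose and 2 fell (median -0.13), and without replicate 1 the counts were 1 and 0. Orai1, the pore of the calcium channel, was one of the rises, with 1.03 (SE 0.09, adjusted p = 9.07e-05).

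Transcription factors of effector differentiation gave a mixed picture. In the list of Batf, Irf and effector factors, 11 of 20 rose and 1 fell (median 0.29), and 7 rose without replicate 1 or without replicate 3. Irf4, which partners Batf on AP-1 composite elements, rose by 0.98 (SE 0.11, adjusted p = 0.000387). Crem, a cAMP-responsive factor, rose by 1.44 (SE 0.14), Nfil3 by 1.20 (SE 0.13) and Rbpj, the mediator of Notch signals, by 0.90 (SE 0.12). Irf8 rose by 0.53 (SE 0.11, adjusted p = 0.00784), a call lost without replicate 1 (adjusted p = 0.0645).

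Among 15 genes of the Th17 program, 7 rose and 2 fell (median 0.20), and without replicate 1 these counts were 4 and 1. Beyond the cytokines and Ccl20, Arid5a, an RNA-binding protein that stabilises cytokine transcripts, rose by 0.63 (SE 0.09, adjusted p = 0.0011). Rora rose by 0.52 (SE 0.11, adjusted p = 0.0101), a call lost without replicate 1 (adjusted p = 0.0726). Il23r and Ccr6, the defining receptors, had changes of -0.02 (SE 0.11) and -0.17 (SE 0.12) that did not pass (adjusted p = 0.923 and 0.38).

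The programs of other helper types were counted in the same way, beside the 8.45% of all genes that rose and the 10.2% that fell. Of 13 Th1 genes, 3 rose and 2 fell (median 0.00), and no fall was called without replicate 1 or without replicate 3. Tbx21 fell by 0.32 (SE 0.09, adjusted p = 0.0388), a call lost without replicate 1 (0.24), replicate 3 (0.0644), Th1 replicate 1 (0.0542) or Th1 replicate 3 (0.0538), and without pairing (0.355). Of 7 Th2 genes, 1 rose and none fell (median 0.14). Of 11 genes of regulatory and follicular helper cells, 3 rose and 3 fell (median -0.03), and 0 or 1 fell when any Th17 replicate was left out. Without pairing, 2 of the 11 rose and 0 fell. Bcl6, the follicular helper regulator and an antagonist of Blimp-1, rose by 1.59 (SE 0.08, adjusted p = 1.1e-06), and Ikzf4, a regulator found in Treg cells, by 0.78 (SE 0.14, adjusted p = 0.00389). Foxp3, the Treg master regulator, had unstimulated levels of 11.05, 10.06 and 10.68, and its change of -0.30 (SE 0.07, adjusted p = 0.0171) lost the call without replicate 1 (0.0707), 2 (0.0648) or 3 (0.0648) and without pairing (0.463).

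Genes that dampen receptor and cytokine signals rose with the inducers. Of 31 measured, 20 rose and 2 fell, with a median change of 0.50. Several phosphatases of MAP kinases took part. Dusp4 was at 8.47, 8.84 and 8.98 without and 11.13, 10.98 and 11.41 with restimulation, a change of 2.41 (SE 0.11, adjusted p = 5.73e-07) with no overlap, and Dusp16, Dusp14 and Dusp5 rose by 2.03, 1.27 and 0.68. Spry1, an inhibitor of Ras signalling, rose by 2.20 (SE 0.20, adjusted p = 8.39e-05), and Rgs16, which quenches G protein signals of chemokine receptors, by 2.53 (SE 0.18, adjusted p = 1.96e-05). Zc3h12a encodes Regnase-1, an RNase that degrades cytokine transcripts, and it rose by 1.40 (SE 0.10, adjusted p = 1.57e-05). Dusp1, Zfp36 and Socs3, also feedback genes, had changes of -0.09, 0.08 and -0.04, with adjusted p = 0.804, 0.773 and 0.718.

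Surface ligands of the TNF family and costimulatory genes rose widely. Of 24 measured, 17 rose and 2 fell (median 0.66), and 1 fell when any Th17 replicate was left out. Tnfsf8, the ligand of CD30, rose by 1.77 (SE 0.12, adjusted p = 1.4e-05). Tnfsf11, known as RANKL and a driver of osteoclast formation, rose by 1.36 (SE 0.17, adjusted p = 0.000655). Cd40lg, through which helper cells activate B cells and dendritic cells, was at 10.64, 11.08 and 11.14 without and 11.80, 11.67 and 12 with restimulation and rose by 0.87 (SE 0.14, adjusted p = 0.00218). Tnfrsf4, the receptor OX40, rose by 1.06 (SE 0.11, adjusted p = 0.000173), Cd83 by 1.61 and the early activation antigen Cd69 by 1.20. Tnfrsf9, the receptor 4-1BB, rose by 0.59 (SE 0.17, adjusted p = 0.039), a call lost without replicate 1 (adjusted p = 0.242) or replicate 3 (0.0936), and without pairing (0.0895).

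Inhibitory receptors and ligands rose beside them. Of 12 measured, 6 rose and 1 fell (median 0.45), and none fell without replicate 1. Cd274, which encodes PD-L1, was at 10.09, 9.80 and 10.01 without and 11.71, 11.66 and 12.03 with restimulation, a rise of 1.83 (SE 0.09, adjusted p = 7.04e-07), and its receptor Pdcd1 rose by 1.03 (SE 0.10). The second ligand, Pdcd1lg2, rose by 1.11 (SE 0.11), and Ctla4, the competitor of CD28, by 0.53 (SE 0.10, adjusted p = 0.00594). Nt5e, the ectonucleotidase CD73, rose by 0.79 (SE 0.10, adjusted p = 0.000621).

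Receptors for cytokines showed no common direction, where 8.45% of all genes rose and 10.2% fell. Of 20 measured, 4 rose and 3 fell (median 0.03), with 2 and 1 called without replicate 1 and 1 and 2 without replicate 3. Without pairing the counts were 2 and 2. Il4ra, a subunit for IL-4 and IL-13, rose by 0.64 (SE 0.11, adjusted p = 0.00345). Il10ra fell, with a change of -0.52 (SE 0.09, adjusted p = 0.00294). Il2ra, the high-affinity IL-2 receptor chain, rose by 0.38 (SE 0.09, adjusted p = 0.0147), a call lost without replicate 1 (adjusted p = 0.0624) or replicate 3 (0.0722). Il7r, the survival receptor of memory cells, had a change of -0.14 (SE 0.08, adjusted p = 0.225).

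Both sides of the apoptosis balance had genes that rose, where 8.45% of all genes rose and 10.2% fell. Among survival genes 7 of 11 rose and 1 fell (median 0.47), and 5 rose without replicate 1 or without replicate 3. Gadd45b, a stress and survival gene, rose by 1.48 (SE 0.08, adjusted p = 3.53e-06) and Bcl2l1, which encodes Bcl-xL, by 0.74 (SE 0.09, adjusted p = 0.00064). Bcl2 fell, with a change of -0.39 (SE 0.08, adjusted p = 0.00743), a call lost without replicate 1 (adjusted p = 0.0542) and without pairing (0.0504). Among pro-apoptotic genes 5 of 15 rose and 2 fell (median 0.14), and no fall was called when any Th17 replicate was left out. Bcl2l11, which encodes Bim, rose by 0.99 (SE 0.10, adjusted p = 0.000215), the death ligand Fasl by 1.10 (SE 0.15, adjusted p = 0.00108) and its receptor Fas by 0.68 (SE 0.09, adjusted p = 0.00118).

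Genes of amino acid supply and targets of Atf4, the factor of the integrated stress response, had the largest share of called members of any list counted. The lists were chosen with earlier results of these data known, so this rank is a description. Of 20 measured, 19 rose and none fell, with a median change of 0.74, and 15 to 17 rose when a Th17 replicate was left out. Chac1, an enzyme that degrades glutathione, was at 7.40, 8.19 and 8.01 without and 10.85, 10.56 and 10.75 with restimulation, a change of 2.85 (SE 0.17, adjusted p = 6.14e-06). Sesn2, an inhibitor of mTORC1, rose by 2.12 (SE 0.08, adjusted p = 1.87e-07). The amino acid transporters Slc1a4, Slc7a11 and Slc7a5 rose by 1.54, 1.27 and 0.94, and Asns, asparagine synthetase, by 1.13 (SE 0.13, adjusted p = 0.000387).

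Other metabolic lists moved little, and are given beside the 8.45% of all genes that rose and the 10.2% that fell. Ribosome biogenesis had 10 of 23 genes higher and none lower (median 0.21), but 4, 4 and 3 without replicates 1, 2 and 3, and 4 without pairing. Gnl3, a nucleolar GTPase, rose by 0.76 (SE 0.09, adjusted p = 0.000387). In glycolysis 2 of 15 rose and none fell (median 0.00), and 0 did so without replicate 1 or without replicate 3. Slc2a1, the glucose transporter GLUT1, had a change of 0.08 (SE 0.09, adjusted p = 0.559). In cholesterol synthesis 2 of 14 rose and 2 fell (median -0.10), with 0 and 1 called without replicate 1. Among heat shock genes 2 of 10 rose and none fell (median 0.21), and none was called without replicate 1 or without pairing.

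**Figure D3:**
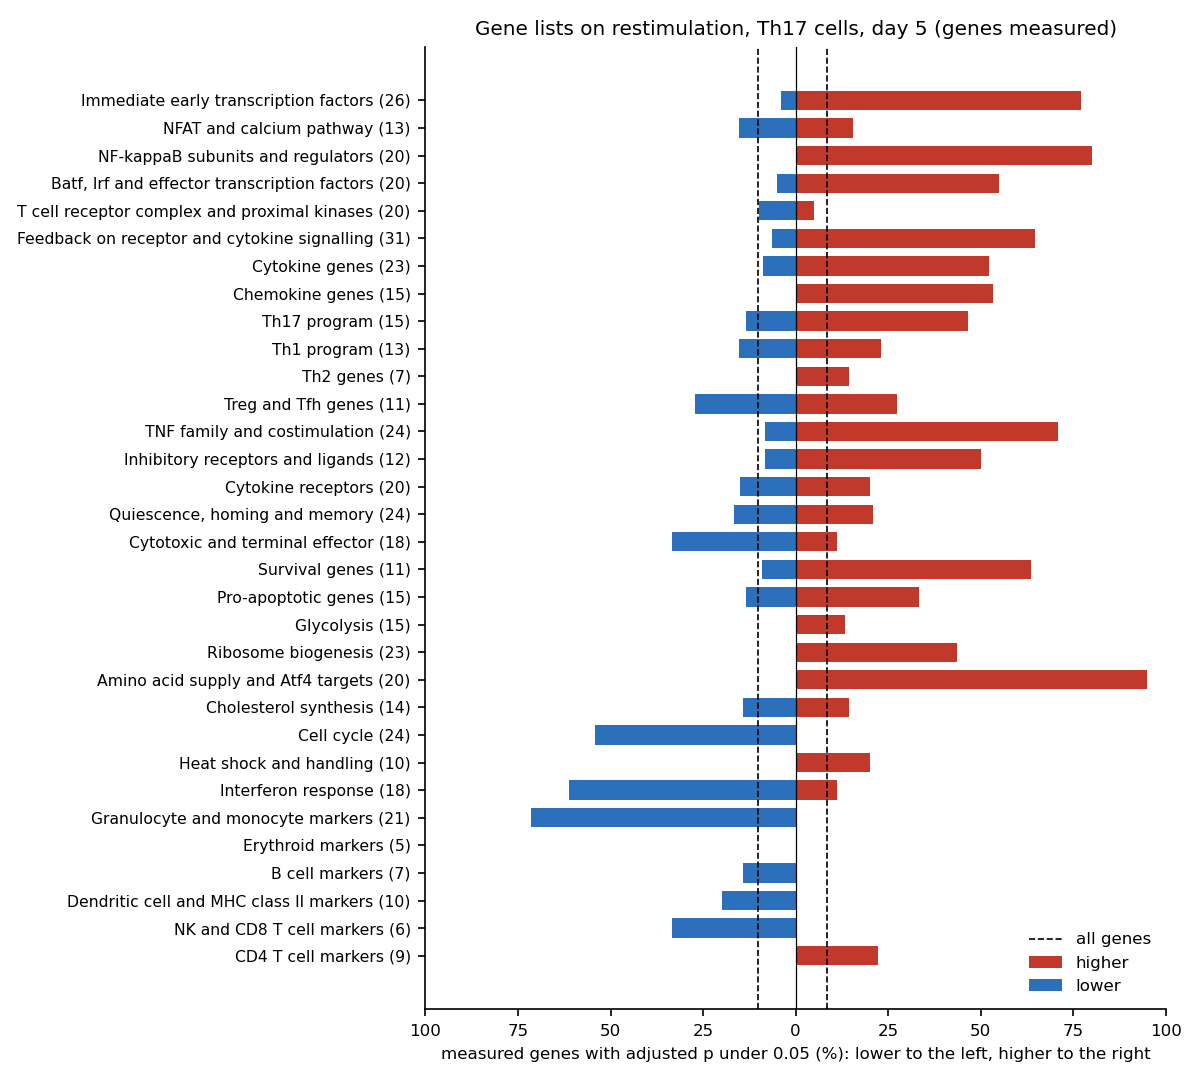
Percent of the measured genes of each list that were called higher or lower on restimulation of Th17 cells at day 5, with dashed lines at 8.45% higher and 10.2% lower for all 19938 genes. The Atf4, NF-kappaB and immediate early lists have the highest bars upward, and the granulocyte, interferon and cell cycle lists the highest downward. The lists were chosen with earlier results of these data known.

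Cell cycle genes that were called all fell. Of 24 measured, none rose and 13 fell, with a median change of -0.35, where 10.2% of all genes fell, and 6 fell without replicate 1. Plk1, a mitotic kinase, was at 11.99, 11.85 and 11.75 without and 10.93, 11.48 and 11.09 with restimulation. The 2 groups did not overlap and the change was -0.70 (SE 0.12, adjusted p = 0.00281). Ccne1, the cyclin of S phase entry, changed by -0.59 (SE 0.11, adjusted p = 0.00437), and Cenpe, a kinetochore motor, by -0.49 (SE 0.10, adjusted p = 0.00751).

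Genes of quiescence, homing and memory moved both ways, where 8.45% of all genes rose and 10.2% fell. Of 24 measured, 5 rose and 4 fell (median -0.11), and 3 of each were called without replicate 3. Without pairing the counts were 2 and 3. Klf2, which maintains quiescence and drives egress receptors, was at 11.46, 11.27 and 11.28 without and 10.71, 10.76 and 10.64 with restimulation, a change of -0.63 (SE 0.12, adjusted p = 0.00514). Klf3, its relative, changed by -0.61 (SE 0.11, adjusted p = 0.00369). S1pr1, the egress receptor that Klf2 controls, had a change of -0.34 (SE 0.09, adjusted p = 0.0229), a call lost without replicate 1 (adjusted p = 0.111), 2 (0.0723) or 3 (0.0666) and without pairing (0.0694). In the opposite direction, Bach2, a repressor of effector differentiation, rose by 1.14 (SE 0.18, adjusted p = 0.00222). Ccr7, the lymph node homing receptor, rose by 0.66 (SE 0.09, adjusted p = 0.000796), which did not pass without pairing (0.0548).

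Cytotoxic and terminal effector genes had calls in both directions. Their shares were 11.1% higher and 33.3% lower, where 8.45% of all genes rose and 10.2% fell. Of 18 measured, 2 rose and 6 fell (median -0.16). Without replicate 1 the counts were 2 and 2, and without pairing 1 and 1. Fgl2, a secreted and membrane-bound suppressive protein, was at 9.87, 9.72 and 9.66 without and 8.85, 8.69 and 8.70 with restimulation, a change of -1.0 (SE 0.08, adjusted p = 2.6e-05). Klrc1, which encodes the inhibitory receptor NKG2A and has close paralogs, rose by 0.73 (SE 0.09, adjusted p = 0.000624).

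Interferon-stimulated genes fell in larger numbers than they rose. Of 18 measured, 11 fell and 2 rose, with a median change of -0.44, and without replicate 1 the counts were 6 and 0. Cmpk2, a mitochondrial nucleotide kinase induced by interferon, was at 10.18, 9.70 and 9.85 without and 8.51, 8.92 and 8.79 with restimulation. The groups did not overlap and the change was -1.17 (SE 0.15, adjusted p = 0.000655). Ifit2, an antiviral RNA-binding protein, changed by -0.91 (SE 0.08, adjusted p = 9.75e-05), Usp18, which switches off the interferon receptor, by -0.83 (SE 0.10, adjusted p = 0.000624), and Ifit3, which has a close paralog, by -0.97 (SE 0.12, adjusted p = 0.000627). Gbp3, a guanylate-binding protein best known as a target of interferon gamma, was at 9.40, 9.85 and 9.54 without and 10.16, 10.08 and 10.28 with restimulation. It rose by 0.58 (SE 0.12, adjusted p = 0.00794), a call lost without replicate 1 (adjusted p = 0.065) or replicate 3 (0.0643). In Th1 cells at day 5, 11 of the 18 genes also fell and 3 rose, with a median of -0.38, where 16.1% of all genes fell and 6.92% rose. In Th17 cells at day 15, 3 of the 18 rose and 0 fell, with a median of 0.16. There 5.84% of all genes rose and 6.95% fell. The difference between days was not tested for this list.

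Genes of myeloid cells were among the largest falls. Of the 22 genes that fell at least 2-fold, 5 were on the list of granulocyte and monocyte markers. Of 21 granulocyte and monocyte markers, 15 fell and none rose, with a median change of -0.56. At least 2-fold, 5 fell, and 17 were lower in every pair. Over all genes, 10.2% fell, 0.11% fell at least 2-fold and 23.2% were lower in every pair. Lyz2, the lysozyme of granulocytes and macrophages, was at 9.60, 8.56 and 8.56 without and 8.18, 6.76 and 6.57 with restimulation, a change of -1.73 (SE 0.18, adjusted p = 0.000227). S100a8, a calprotectin subunit of neutrophils, was at 10.54, 7.92 and 8.63 without and 9.33, 6.90 and 7.58 with restimulation, a change of -1.09 (SE 0.10, adjusted p = 0.000113). Mmp8, a collagenase of neutrophil granules, was at 9.93, 6.54 and 7.22 without and 8.11, 5.29 and 5.44 with restimulation, a change of -1.62 (SE 0.12, adjusted p = 2.3e-05). The 3 genes were lower in every pair, and in S100a8 and Mmp8 replicate 1 was so high that the groups overlapped. Without pairing the samples 3 of the 21 markers were called, and S100a8 and Mmp8 were not (adjusted p = 0.241 and 0.175). Summed over the 21 markers on the linear scale, the level was 4189 to 16196 in the unstimulated and 2489 to 8390 in the restimulated arrays. In Th1 cells, where the markers were lower to begin with, 5 of 21 fell, with a median of -0.24, where 16.1% of all genes fell. The marker mean was lower in every restimulated portion, beside every other result given here. A fit with it as a covariate could not separate it from restimulation, so its part in those results was not determined.

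Further genes among the largest falls were Slfn5, a Schlafen family member, at -1.34 (SE 0.13, adjusted p = 0.000134), Cd200r4 at -1.13 (SE 0.13, adjusted p = 0.000478) and C1qb, a complement chain of macrophages, at -1.02 (SE 0.14, adjusted p = 0.00102). Markers of other cell types were counted beside the 10.2% of all genes that fell. Of 5 erythroid markers none was called (median -0.17), and of 7 B cell markers 1 fell (median -0.07). Of 10 dendritic cell and MHC class II markers 2 fell (median -0.00), and of 6 NK and CD8 T cell markers 2 fell (median -0.24). Of 9 CD4 T cell markers 2 rose and none fell (median -0.12). Without replicate 1 the only call in these 5 lists was a fall of 1 NK and CD8 marker.

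**Figure D4:**
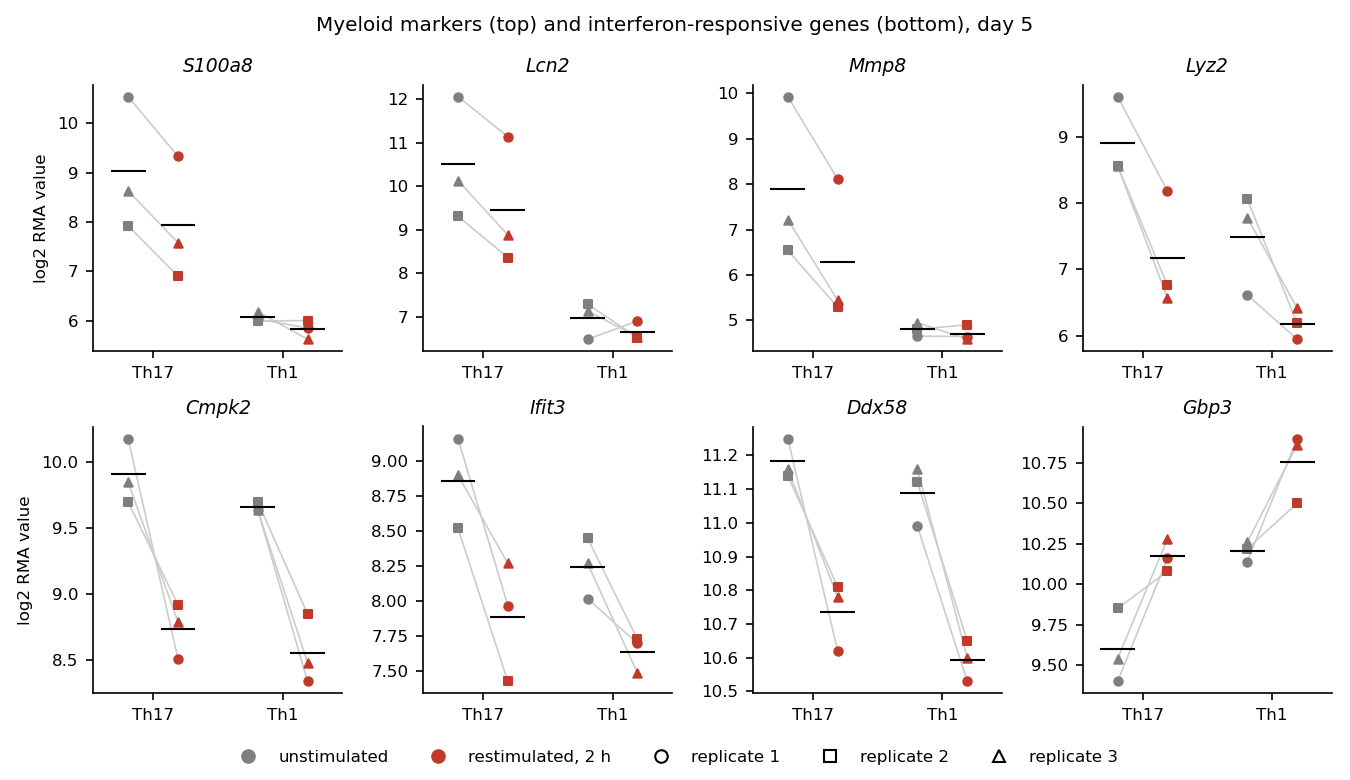
Log2 levels of 4 myeloid genes and 4 interferon-stimulated genes in Th17 and Th1 cells at day 5, with lines joining the portions of a replicate and bars at group means. Replicate 1 of the Th17 cells lies highest for S100a8, Lcn2, Mmp8 and Lyz2 in both portions, and Cmpk2 and Ifit3 were lower after restimulation in both types while Gbp3 was higher in both.

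Whether the response was that of Th17 cells or of both helper types was tested as the difference between the 2 changes. It passed for 25 of 19938 genes (0.125%). The signed change was higher in Th17 cells for 12 (0.0602%) and lower for 13 (0.0652%), while 1427 had an unadjusted p under 0.05. The count was 12 without Th17 replicate 1, 11 without Th17 replicate 3, 11 without Th1 replicate 1, 4 without Th1 replicate 3, and 3 without pairing. Of the 152 genes raised at least 2-fold in Th17 cells, 141 also rose in Th1 cells, where 6.92% of all genes rose and 16.1% fell. The 124 genes raised at least 2-fold in both made up 81.6% of the 152 and 69.3% of the 179 such genes of Th1 cells.

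The 2 signature cytokines had the largest differences. Il17a in Th1 cells was at 6.41, 6.44 and 6.33 without and 6.52, 6.45 and 6.50 with restimulation. All Th1 values lay below the lowest Th17 value, and the change in Th17 cells was larger by 3.29 (SE 0.12, adjusted p = 1.26e-06), 95% interval 3.02 to 3.56. Il17f differed by 2.91 (SE 0.12, adjusted p = 2.5e-06), and both calls held in every alternative, each left-out replicate included. Ccl20 rose by 1.55 in Th17 cells and had a change of 0.15 in Th1 cells, a difference of 1.40 (SE 0.19, adjusted p = 0.0256) that was lost without Th17 replicate 1 (adjusted p = 0.0867), Th1 replicate 1 (0.101) or Th1 replicate 3 (0.153). Kit, a receptor tyrosine kinase, differed by 1.13 (SE 0.12, adjusted p = 0.00742) and Dab2, an adaptor protein, by 1.27 (SE 0.14, adjusted p = 0.00868), and both were lost without Th1 replicate 3 (0.0597 and 0.0726). Iltifb, near identical in sequence to Il22 so that probes may not separate them, differed by 1.52 (SE 0.23, adjusted p = 0.0422), a call lost when any of 5 replicates was left out (0.0942 to 0.243). Without pairing, adjusted p was 0.116 for Ccl20, 0.225 for Kit, 0.107 for Dab2 and 0.648 for Iltifb.

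In the other direction stood Il4 and a heat shock gene. Il4 in Th1 cells was at 6.49, 6.66 and 6.57 without and 9.84, 9.28 and 10.73 with restimulation. Its difference of -2.70 (SE 0.38, adjusted p = 0.0357) was lost without Th17 replicate 2 (adjusted p = 0.0562), Th17 replicate 3 (0.166), Th1 replicate 1 (0.104) or Th1 replicate 3 (0.125). Hspa1a, an inducible HSP70 chaperone, rose by 2.77 in Th1 cells and had a change of 0.45 (SE 0.18, adjusted p = 0.103) in Th17 cells, a difference of -2.32 (SE 0.25, adjusted p = 0.00742) that was lost without Th1 replicate 3 (0.0695). Cpd, a carboxypeptidase, rose by 1.14 in Th17 and by 2.37 in Th1 cells, and its difference of -1.24 (SE 0.12, adjusted p = 0.00404) held whichever replicate was left out. Without pairing, adjusted p was 0.116 for Il4, 0.709 for Hspa1a and 0.897 for Cpd. For the shared cytokines the difference did not pass. It was -0.82 (SE 0.28, adjusted p = 0.593) for Il2, with an interval of -1.45 to -0.20, and 0.16 (SE 0.28, adjusted p = 0.924) for Ifng, with an interval of -0.45 to 0.78. A p that misses the threshold does not show that the 2 types responded alike.

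Whether the response differed later was tested against the 8 arrays of Th17 cells at day 15. The replicate numbers of day 15 were not shown to pair its samples. The difference passed for 161 genes (0.808%), 76 with the higher value at day 5 (0.381%) and 85 at day 15 (0.426%), and 161 also passed without pairing. The count was 7, 30 and 13 without day 5 replicates 1, 2 and 3, and 316, 27 and 252 without day 15 replicates 1, 2 and 3. Of the 152 genes raised at least 2-fold at day 5, 113 also rose at day 15, where 5.84% of all genes rose and 6.95% fell. The 74 genes raised at least 2-fold on both days made up 48.7% of the 152 and 35.7% of the 207 such genes of day 15.

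Il17f, Il17a, Mt2, Kit and Chac1 were among the 76 genes with the higher value at day 5. Il17f differed by 2.05 (SE 0.19, adjusted p = 0.00143), and this call held in every alternative. Il17a at day 15 was at 6.44, 6.45, 6.75 and 6.39 without and 8.93, 6.85, 7.32 and 7.02 with restimulation. One restimulated array there, replicate 1, stood above the other 3, and the difference of 2.36 (SE 0.41, adjusted p = 0.0254) was lost without any one of the day 5 replicates (adjusted p = 0.135, 0.114 and 0.0786) or day 15 replicate 2 (0.0932). Mt2, a metallothionein that binds zinc, rose by 2.09 at day 5, had a change of -0.61 at day 15 and differed by 2.70 (SE 0.22, adjusted p = 0.000736). Kit changed by 1.24 and -0.71, a difference of 1.95 (SE 0.14, adjusted p = 0.000358). Both held in every alternative. Chac1 differed by 2.34 (SE 0.34, adjusted p = 0.0136), a call lost without day 5 replicate 1 (0.083), day 5 replicate 3 (0.064) or day 15 replicate 2 (0.0579).

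Hspa1a, Fosb, Fos and Jun were among the 85 genes with the higher value at day 15. Hspa1a differed by -3.30 (SE 0.64, adjusted p = 0.0421), a call lost when any of 6 replicates was left out (adjusted p = 0.0511 to 0.182) and without pairing (0.0795). Of the 10 heat shock and handling genes, 8 rose at day 15, with a median of 0.64, and 2 rose at day 5. Of the 26 immediate early factors, 20 rose on each day, with medians of 1.58 at day 15 and 0.93 at day 5. The difference between days was not tested for these lists. Fos at day 15 was at 9.52, 8.64, 7.68 and 7.51 without and 10.81, 11.19, 10.42 and 10.73 with restimulation. Its groups did not overlap there, whereas they overlapped at day 5, and the difference was -2.37 (SE 0.41, adjusted p = 0.0254). Fosb and Jun differed by -2.81 (SE 0.46, adjusted p = 0.0206) and -2.01 (SE 0.33, adjusted p = 0.0204). These 3 calls were lost without any one of the day 5 replicates, at adjusted p = 0.0517 to 0.138, and without day 15 replicate 2 (0.0962, 0.0858 and 0.0713). Without pairing the call of Jun was lost (0.0719). Unstimulated levels of Fos were 9.79, 9.23 and 9.96 at day 5, where the day 15 range was 7.51 to 9.52. For Il2 the difference was 1.93 (SE 0.69, adjusted p = 0.278), with an interval of 0.40 to 3.45, and for Ifng it was 0.06 (SE 0.32, adjusted p = 0.95), with an interval of -0.65 to 0.76.

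**Figure D5:**
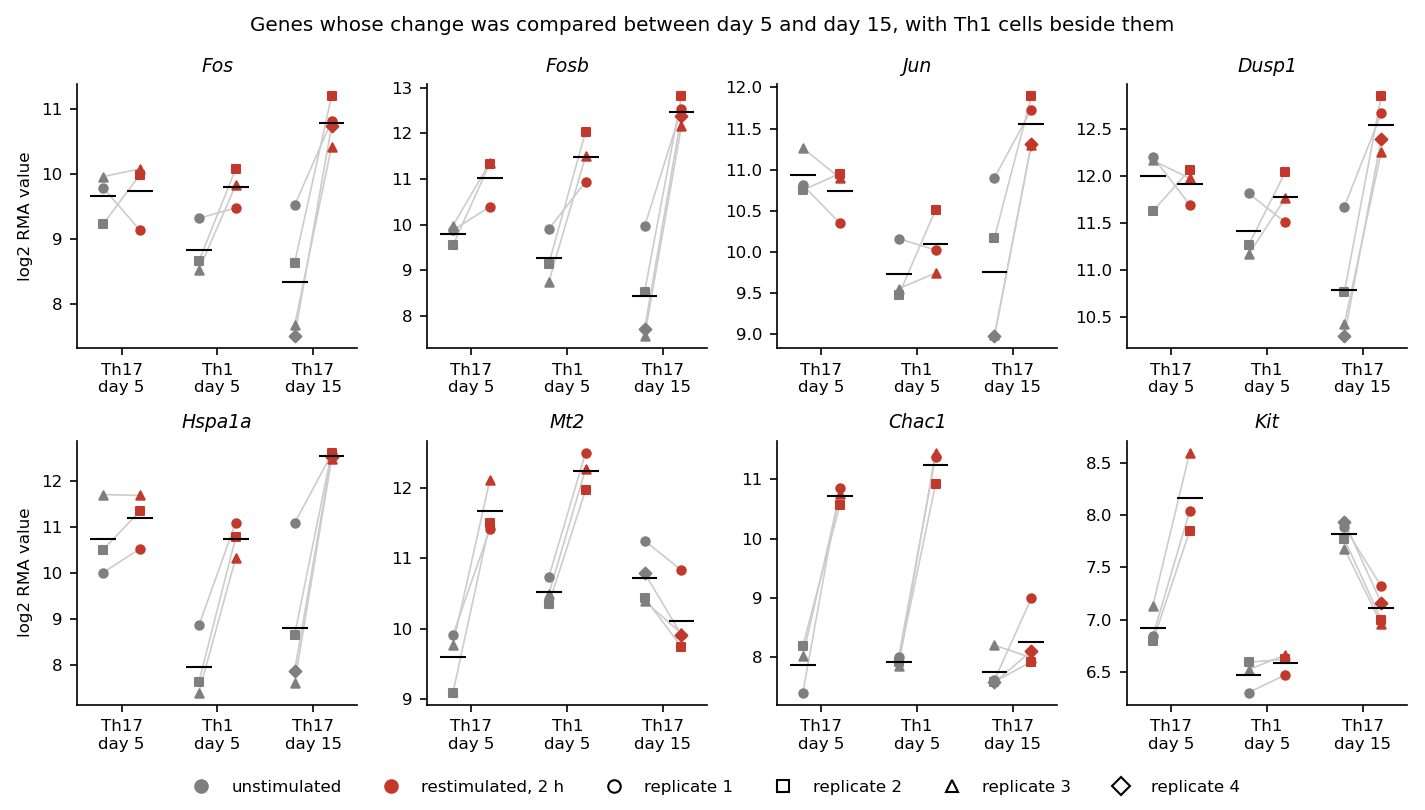
Log2 levels of Fos, Fosb, Jun, Dusp1, Hspa1a, Mt2, Chac1 and Kit without and with restimulation in Th17 day 5, Th1 day 5 and Th17 day 15 samples, with lines joining arrays of the same replicate number, which at day 15 was not shown to pair samples. Fos, Jun and Dusp1 rose in Th17 cells at day 15 and were not called at day 5, while in Th17 cells Mt2 and Kit rose at day 5 and fell at day 15.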

How the data were processed

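Total RNA was hybridised to Affymetrix whole-transcript arrays. The authors deposited log2 expression values made by RMA in Affymetrix Expression Console, per the submitters' processing notes; no source used here gives their versions or which arrays were normalised together. RMA fits probe sets across arrays, so values carry no counts and no detection call, and precision is limited by how many arrays there are. Of 35556 probe sets, 21789 had 1 symbol, 1621 several and 12146 none; 21698 matched by gene identifier and no symbol was updated. The probe set with the highest mean stood for each of 19938 genes, of which 999 had more than 1.

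limma 3.58.1 in R 4.3.3 was fitted to the 12 day 5 arrays, with the sample as a fixed block and one restimulation change per type; p-values were adjusted by Benjamini-Hochberg over all genes. The Th17 minus Th1 difference came from the same fit, and the day 5 minus day 15 difference from the 14 Th17 arrays with the sample as block. The treatment protocol says that samples were split. After subtracting group means, arrays that share a number correlated at 0.44, 0.40 and 0.48 in Th17 and 0.16, 0.22 and 0.16 in Th1 cells at day 5, but at -0.00, 0.22, -0.13 and -0.17 at day 15. The fit was tested on simulated data with known changes.

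Named genes are up to 15 each way with the largest change among called, non-overlapping genes that move one way in every pair, a panel, and the 6 most changed called genes of each list. The interactions name up to 8 genes each way. Members and lists were chosen with earlier results of these data known. Alternatives varied the block, arrays, normalisation, filter, prior, weights, probe set rule, a granulocyte covariate and each replicate.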

Additional observations from a re-analysis of the deposited data

Results flagged for a closer look

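Genes whose response differed between Th17 and Th1 cells at day 5, by the test of the difference itself, are given here as Th17 minus Th1 log2 changes. On the Th17 side stood Il17a at 3.29, Il17f at 2.91, Cxcl10 at 1.52, Iltifb at 1.52, Ccl20 at 1.40, Dab2 at 1.27, Kit at 1.13 and Iigp1, an interferon-inducible GTPase, at 1.05. On the Th1 side stood Il4 at -2.70, Hspa1a at -2.32, the circadian gene Ciart at -1.32, Cpd at -1.24, the carbonic anhydrase Car1 at -1.13, Il17re, a receptor for IL-17C, at -1.09 and the semaphorin Sema6d at -1.01. Mmp8 differed by -1.52, in the type whose unstimulated samples had the higher granulocyte markers. The differences are signed, so a negative value can also come from a fall in Th17 cells. Mmp8 fell there, with a change of -1.62.

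Of these 16 calls, Il17a, Il17f and Cpd held whichever replicate was left out. Cxcl10, Iigp1 and Car1 were each lost in 4 of 6 such fits (adjusted p = 0.0744 to 0.169, 0.131 to 0.235 and 0.0688 to 0.0978), Il17re and Sema6d in 5 (0.0614 to 0.241 and 0.058 to 0.213), Ciart in 2 (0.106 and 0.201) and Mmp8 in 1 (0.0584). Without pairing, adjusted p was 0.225 for Cxcl10 and for Il17re, 0.904 for Iigp1, 0.352 for Ciart, 0.36 for Sema6d and 0.992 for Mmp8.

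Genes whose response in Th17 cells differed between day 5 and day 15, tested the same way, are given as day 5 minus day 15. Higher in signed change at day 5 were Mt2 at 2.70, Il17a at 2.36, Chac1 at 2.34, Il17f at 2.05 and Kit at 1.95. So were Tlcd4 at 1.93, the pyruvate kinase Pklr at 1.71, the connexin Gja1 at 1.69 and Ccl20 at 1.35. Pklr did not rise at day 5, where its change without pairing was -0.28. Higher in signed change at day 15 were Hspa1a at -3.30, Fosb at -2.81, Fos at -2.37 and Jun at -2.01. So were the vault RNA Vaultrc5 at -1.98, the olfactory receptor Olfr1444 at -1.90 and Dusp1 at -1.84. The same held for Ppp1r15a, a phosphatase subunit of the stress response, at -1.76, Zfp36 at -1.42, Tnfaip3 at -0.86 and Gadd45b at -0.82.

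Mt2, Il17f, Kit and Gja1 held whichever replicate was left out. Tlcd4 and Pklr were each lost in 4 of 7 such fits (adjusted p = 0.0579 to 0.083 and 0.0783 to 0.124), and Hspa1a in 6 (0.0511 to 0.182). Vaultrc5, Olfr1444, Dusp1, Ccl20 and Zfp36 were each lost in 3 (0.0579 to 0.118 over the 5 genes), and Ppp1r15a in 1 (0.0663). Tnfaip3 was lost in 4 (0.095 to 0.155) and Gadd45b in 5 (0.0601 to 0.197). Without pairing, adjusted p was 0.0795 for Hspa1a, 0.0732 for Tnfaip3 and 0.236 for Gadd45b.

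Of 32 groups of 4 day 15 values, 2 held a single array far from the other 3: unstimulated replicate 3 was at 6.75 for Il17a and 8.20 for Chac1. Chance alone marks about 1 in 20 such groups.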

How the results depend on the processing

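Of 181 called named genes, 112 kept call and direction in all 17 alternatives other than the granulocyte covariate. Of the other 69, 64 lost the call in an alternative that kept all samples, and 46, 16 and 37 lost it without Th17 replicates 1, 2 and 3. Genes higher numbered 795 and genes lower 814 in a fit of 24 arrays in 8 groups with no replicate block, and 808 and 823 with the replicate block. With no replicate block in the 12 day 5 arrays they numbered 1245 and 1527. Leaving out one replicate gave 843 to 1602 higher and 790 to 1908 lower, with 144 to 230 changed at least 2-fold. The Th17 minus Th1 count of 25 was 3 with no replicate block, 4 and 8 in 24 arrays without and with it, 8 with the sample as a random block, 2 with the covariate, and 4 to 32 with a replicate left out. The day 5 minus day 15 count of 161 was 272 in 24 arrays, 2537 with array weights, and 7 to 316 with a replicate left out. The cause was not tested. With the granulocyte marker mean as a covariate, 0 genes were called higher, 0 lower and 0 at least 2-fold by limma, and 613 had an unadjusted p under 0.05. The marker mean fell almost equally in every pair, so this fit cannot separate it from restimulation, and the median SE rose from 0.0827 to 0.433. Under it 29 called genes changed sign, none of them called: Bak1 0.18, Btg2 -0.06, C1qb 0.19, Ccne1 0.06, Ciart -0.06, Ctla4 -0.11, Cxcr5 0.43, Fosb -1.64, Hk2 -0.12, Ifi208 0.27, Ifit3 0.22, Irf8 -0.46, Lcn2 1.08, Ncr1 0.08, Ngp 0.63, Nop16 -0.08, Oasl2 0.84, Pklr 0.08, Ppp1r15a -0.15, Ppp3cc 0.15, Retnlg 0.28, S1pr1 0.34, Slc16a1 -0.03, Slc7a11 -1.15, Tbx21 0.12, Themis 0.03, Tnfrsf9 -1.41, Tyrobp 0.23 and Zeb2 -0.15. The 3 pairs per type limit what can be called, most of all among small changes.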

Other observations

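The cultures from which the transferred cells came were also measured before transfer, with 1 unstimulated and 1 restimulated Th17 array, so the following differences have no replicate check. Il17a was at 11.86 without and 12.82 with restimulation in the cultures, far above its unstimulated levels of 6.71 to 7.15 at day 5, and Il17f was at 13.00 without and 13.32 with restimulation. Ccl20 was at 8.56 without and 11.64 with restimulation. Il2 was at 8.75 without and 12.35 with restimulation and Il3 at 5.16 without and 12.65 with restimulation, both higher after restimulation, as in the recovered cells. Csf2 was at 7.42 without and 10.62 with restimulation and Nr4a1 at 10.57 without and 12.90 with restimulation. Cxcl10 was at 8.53 without and 11.99 with restimulation, Myc at 12.44 without and 12.74 with restimulation and Bcl6 at 9.68 without and 9.33 with restimulation. Lyz2, the myeloid lysozyme, was at 12.07 without and 11.14 with restimulation, in cultures that had been started with irradiated spleen cells. The source of this Lyz2 signal was not tested.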
